A study of Mus musculus with 79 samples.

Results

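Mitochondrial ribosomal proteins are the nuclear-encoded proteins of the ribosome inside mitochondria, and their messenger RNAs were followed in mouse muscle from 2 muscle-specific knockouts, of PER2 and of RORα (gene Rora). Members were all genes whose symbol begins with Mrpl or Mrps and a number, pseudogene names excluded. This gave 78 genes in all: 77 of the 14253 genes of the RORA set and 76 of the 12952 genes of the PER2 set, with 75 in both. Mrpl57 and Mrpl58 were listed by these symbols in the RORA set only, and Mrpl53 in the PER2 set only. The PER2 set lists the older symbols Mrp63 and Ict1, of Mrpl57 and Mrpl58, with mean log2 fold changes of -0.06 and -0.13, outside the symbol rule. The genes are spread over the genome, with 11 members on chromosome 11 and 8 on chromosome 17. At a minimum of 50 normalized counts 76 of 77 RORA members remained, and at a minimum of 1 CPM all 76 PER2 members. The groups were PER2 MKO (muscle-specific knockout, 24 libraries) against PER2 CTRL (19 libraries), and RORA MKO (18 libraries) against RORA CTRL (18 libraries). The labels give the CTRL genotype as WT. Muscle was taken at zeitgeber time (ZT, hours after lights on) 0, 4, 8, 12, 16 and 20, with 3 or 4 mice per genotype and ZT. The Cre driver, deleted exons, strain, age and name of the muscle are not stated in the labels.

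The mitochondrial ribosome has a large subunit, where peptide bonds form, and a small subunit, where the messenger is decoded. It makes only the few proteins encoded by mitochondrial DNA, which are core parts of the respiratory chain and of ATP synthase, so muscle depends on it for oxidative energy supply. Its RNA comes from the mitochondrial genome, whereas its proteins are encoded in the nucleus, made on cytosolic ribosomes and imported. Some have a counterpart in bacterial ribosomes, and others are specific to mitochondria. Human mutations in several of them, MRPL3, MRPL12, MRPL44, MRPS16 and MRPS22 among them, cause combined deficiencies of the respiratory complexes. RORα is a nuclear receptor that activates transcription, and PER2 represses transcription within the clock. Each is a regulator whose loss was compared with CTRL muscle through the day.

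Promoters are shown for the 6 members that were called at every ZT in the RORA set and for Mrpl27, the member that was lower there. Each line is the 250 bases before the RefSeq gene start, 5′ to 3′ on the gene's strand, in build GRCm38.p6. Capitals mark a match, on either strand, to a motif named after the sequences.
Mrpl12 (chr11:120484387-120484636, + strand): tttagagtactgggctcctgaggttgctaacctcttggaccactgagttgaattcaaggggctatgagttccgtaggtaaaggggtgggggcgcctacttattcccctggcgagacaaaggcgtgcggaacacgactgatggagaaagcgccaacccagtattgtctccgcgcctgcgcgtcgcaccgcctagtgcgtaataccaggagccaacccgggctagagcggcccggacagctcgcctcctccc
Mrpl28 (chr17:26123253-26123502, + strand): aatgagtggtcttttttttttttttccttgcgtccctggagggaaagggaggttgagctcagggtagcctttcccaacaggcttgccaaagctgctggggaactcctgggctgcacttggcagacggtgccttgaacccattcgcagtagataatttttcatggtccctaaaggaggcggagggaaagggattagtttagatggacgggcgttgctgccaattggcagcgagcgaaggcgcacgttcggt
Mrpl2 (chr17:46645971-46646220, + strand, the first of 3 starts listed for the gene): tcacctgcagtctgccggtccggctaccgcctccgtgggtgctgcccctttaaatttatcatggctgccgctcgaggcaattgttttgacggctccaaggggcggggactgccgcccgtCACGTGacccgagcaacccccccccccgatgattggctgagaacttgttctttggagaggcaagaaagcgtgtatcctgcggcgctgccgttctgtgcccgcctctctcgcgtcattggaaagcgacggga
Mrpl37 (chr4:107066867-107067116, - strand): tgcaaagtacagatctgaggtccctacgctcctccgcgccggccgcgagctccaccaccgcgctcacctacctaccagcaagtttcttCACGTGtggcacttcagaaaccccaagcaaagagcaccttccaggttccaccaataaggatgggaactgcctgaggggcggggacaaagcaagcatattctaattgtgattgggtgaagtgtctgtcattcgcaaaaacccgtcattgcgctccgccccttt
Mrpl3 (chr9:105053018-105053267, + strand): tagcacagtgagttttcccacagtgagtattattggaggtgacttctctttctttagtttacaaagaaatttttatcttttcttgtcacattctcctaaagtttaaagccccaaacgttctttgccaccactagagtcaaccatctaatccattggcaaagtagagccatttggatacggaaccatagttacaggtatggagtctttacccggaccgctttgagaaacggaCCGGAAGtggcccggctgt
Mrpl35 (chr6:71823785-71824034, - strand): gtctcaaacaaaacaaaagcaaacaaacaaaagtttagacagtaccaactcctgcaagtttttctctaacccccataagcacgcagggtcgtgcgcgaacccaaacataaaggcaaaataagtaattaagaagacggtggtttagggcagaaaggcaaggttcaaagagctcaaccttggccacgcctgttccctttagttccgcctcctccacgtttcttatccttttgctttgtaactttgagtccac
Mrpl27 (chr11:94653541-94653790, + strand): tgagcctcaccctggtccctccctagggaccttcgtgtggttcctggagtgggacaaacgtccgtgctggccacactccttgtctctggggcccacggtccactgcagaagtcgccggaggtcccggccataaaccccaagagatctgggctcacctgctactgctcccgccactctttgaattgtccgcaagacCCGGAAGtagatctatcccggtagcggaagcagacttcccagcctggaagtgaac
The capitals are CACGTG, the E-box bound by the clock activators, in Mrpl2 and Mrpl37, and CCGGAAG, a site of the ETS family to which GABP belongs, in Mrpl3 and Mrpl27. Motifs were searched on both strands of the whole RefSeq window of 300 bases, which runs 50 bases past the start, for the 69 of 78 members that matched. CCGGAAG was present in 25 member promoters (36.2%), against 9.12% of all 27025 promoters. AAGATGGC, a site of YY1, was present in 12 (17.4%), against 2.88% of all promoters. The palindromic 10-letter core motif of NRF1 was present in 3 (4.35%), against 0.977% of all promoters. The nuclear receptor half-site AGGTCA, which ROR proteins bind after an A/T-rich stretch, was present in 11 (15.9%), against 16.0% of all promoters, and the palindrome CACGTG in 5 (7.25%), against 7.24%. Among RORA members, 9 of 10 with AGGTCA and 35 of 58 without it had a higher mean past the test described later, and for CCGGAAG these counts were 13 of 24 and 31 of 44, differences that were not tested. Among the genes shown, AGGTCA lay past the start in Mrpl12, and AAGATGGC in Mrpl37 and Mrpl35, outside the bases printed. All these matches describe letters in a window and are not binding sites shown by these data.

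All values rest on the authors' own comparisons, in 12 deposited tables, 1 per set and ZT. No values of single libraries were used here, the depth of the libraries is unknown, and whether single mice of the groups overlap cannot be said. RORA fold changes are MKO over CTRL. The PER2 tables and labels do not say which genotype is over which, so PER2 values are given as positive or negative log2 fold changes. In the authors' deposited RORA tables, Rora was at -1.83, -1.51, -1.96, -1.85, -1.71 and -1.82 at ZT0 to ZT20, called at all 6 ZT. In the PER2 set, Per2 averaged 0.37 ± 0.29 (SD, n = 6 ZT) and was called at 1 ZT. Of 10 skeletal muscle markers, such as Ckm and Acta1, all 10 were measured in each set, at 184 to 792710 normalized counts in RORA and 13.7 to 68734 CPM in PER2. In bulk muscle, fewer cells of a type and less RNA per cell cannot be told apart. The p-values measure the spread between these mice as the authors' models estimated it.

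In RORA MKO muscle, most mitochondrial ribosomal protein messengers were slightly more abundant than in RORA CTRL muscle on average over the 6 ZT, in both subunits. At each ZT taken alone, fewer than 50% of them were called. Averaged over the 6 ZT, 51 of 77 members rose and 1, Mrpl27, fell (inverse-variance weighted mean, Benjamini-Hochberg adjusted p under 0.05 over all genes). The other 25 did not pass. Of all genes tested, 18.9% were called higher, 19.3% lower and 38.2% in either direction. The median mean log2 fold change of the members was 0.08, a difference of 5.52%, against 0.00 over all genes. Single members ran between -0.08 for Mrpl23 and 0.21 for Mrpl12. The members lay close to each other, with an SD among them of 0.058 on the log2 scale, and 66 of 77 had a positive mean. A positive fold change at each of the 6 ZT was seen for 40 members (17.5% of all genes), and a negative one at each ZT for Mrps33 alone (17.1% of all genes). These sizes may be understated, because the deposited RORA fold changes behave as shrunken values.

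The large subunit had 36 of 50 members higher and 1 lower, with a median mean log2 fold change of 0.08. The small subunit had 15 of 26 higher and none lower, with a median of 0.06. Mrps36 was in neither count, since its protein belongs to the 2-oxoglutarate dehydrogenase complex despite the name. Members with a bacterial counterpart had 34 of 48 higher, 1 lower and a median of 0.07, and members specific to mitochondria had 17 of 28 higher, none lower and a median of 0.08. Whether these classes differ from each other was not tested.

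**Figure D1:**
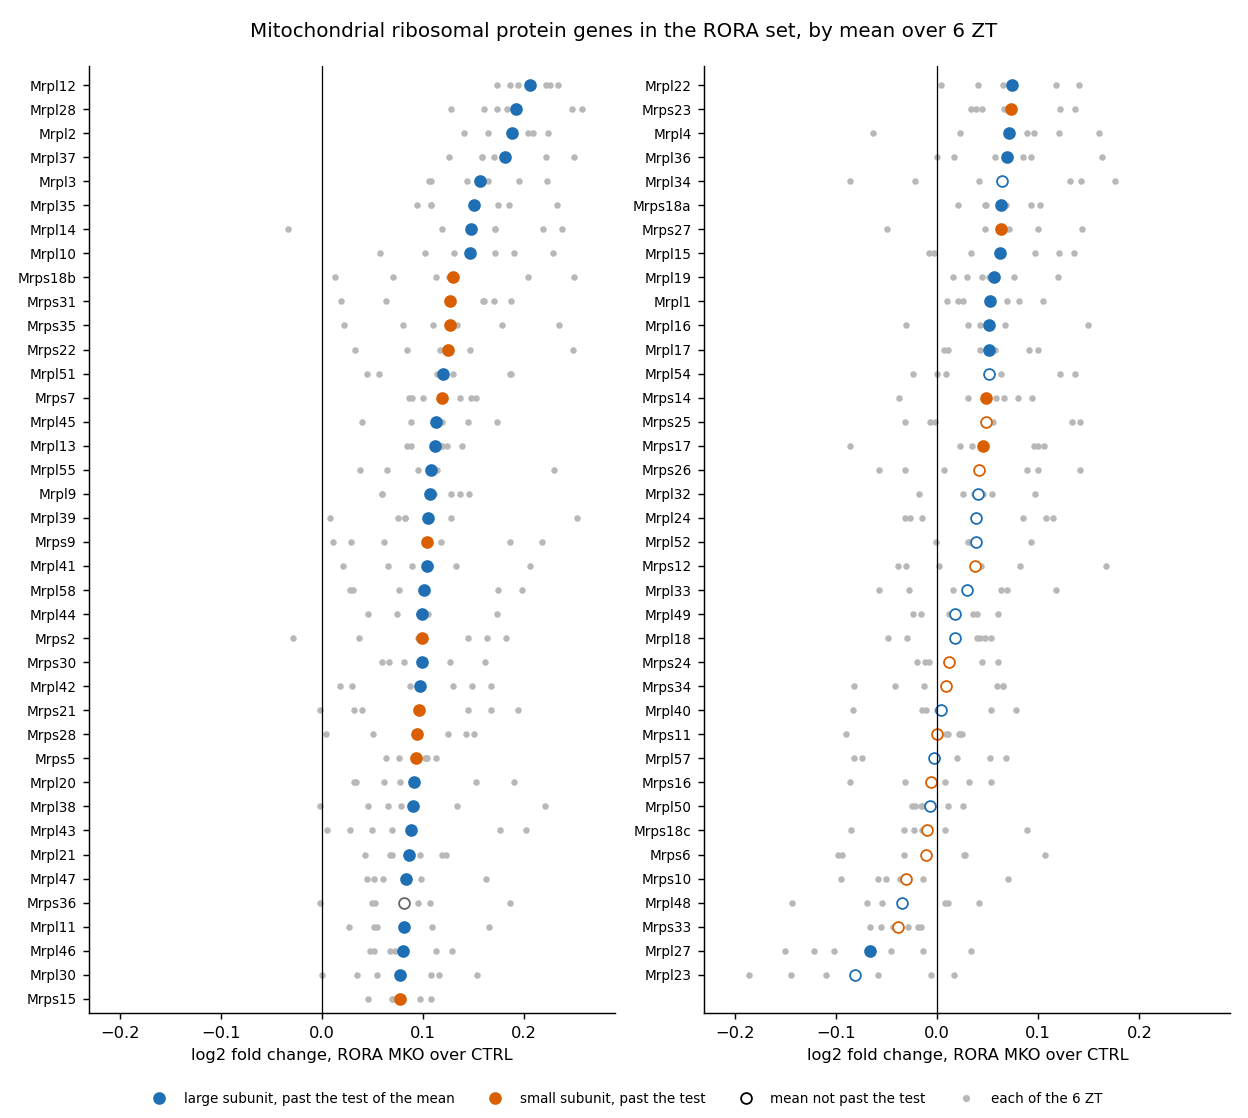
Log2 fold change of RORA MKO over RORA CTRL for each of the 77 members, ordered by the mean over 6 ZT; large points are means, filled where past the test, and small grey points are the 6 single ZT. The order runs from Mrpl12, at 0.21, to Mrpl23, at -0.08, and 66 of 77 means lie above 0.

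The authors' deposited tables called 6 members higher at every ZT, and all 6 belong to the large subunit (3.95% of all genes were called higher at all 6 ZT). Mrpl12 (ENSMUSG00000039640) encodes the stalk protein that brings translation factors to the ribosome. In the authors' deposited tables it had log2 fold changes of 0.17, 0.19, 0.22, 0.22, 0.19 and 0.23 at ZT0 to ZT20. These values lay within a narrow band, and the mean was 0.21 ± 0.02 (SD, n = 6 ZT), a rise of 15.3%, with an adjusted p of 1.25e-27 for the inverse-variance weighted mean. Mrpl2 and Mrpl3 are relatives of bacterial proteins that sit close to the peptidyl transferase centre, where the peptide bond is made. Mrpl2 stood at 0.20, 0.14, 0.19, 0.21, 0.22 and 0.16 at ZT0 to ZT20 in the authors' deposited tables, a mean of 0.19. The deposited values for Mrpl3 were 0.16, 0.19, 0.11, 0.22, 0.14 and 0.11, a mean of 0.16. Both genes were positive at every ZT, and the ZT of the lowest and highest value differed between them. Mrpl28 and Mrpl35 also have bacterial counterparts. For Mrpl28 the authors' deposited tables gave 0.17, 0.13, 0.18, 0.16, 0.25 and 0.26 at ZT0 to ZT20, highest at the last 2 times. For Mrpl35 they gave 0.09, 0.17, 0.23, 0.19, 0.11 and 0.11, highest at ZT8. Mrpl37 is specific to mitochondria. Its deposited values were 0.17, 0.16, 0.25, 0.22, 0.16 and 0.13, and its mean of 0.18 had the smallest adjusted p among the members (1.58e-30, inverse-variance weighted mean). None of these 6 members passed the test of change with ZT (Cochran's Q).

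Other members of the large subunit rose on average without a call at every ZT. Mrpl14, a protein at the face that meets the small subunit, had 0.22, 0.24, 0.17, 0.17, -0.03 and 0.12 at ZT0 to ZT20 in the authors' deposited tables. The first 4 values were called and the last 2 were not, and the mean was 0.15 (adjusted p 2.04e-06, inverse-variance weighted mean). Mrpl10, which anchors the stalk formed by Mrpl12, had deposited values of 0.23, 0.19, 0.17, 0.10, 0.06 and 0.13, called at 4 ZT, and a mean of 0.15. Mrpl45 lies at the exit of the peptide tunnel, facing the inner membrane, and averaged 0.11. Mrpl44, a protein with a ribonuclease III-like fold, averaged 0.10, as did Mrps30, which despite its name is a protein of the large subunit. Mrpl58 is a peptidyl-tRNA hydrolase that frees stalled ribosomes, and it averaged 0.10 with calls at ZT0 and ZT8 (adjusted p of the mean 0.000415, inverse-variance weighted mean). Mrpl45 is named here after its values were seen.

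In the small subunit the highest mean was that of Mrps18b, at 0.13. The authors' deposited tables gave it 0.25, 0.01, 0.07, 0.11, 0.20 and 0.13 at ZT0 to ZT20, called at ZT0, ZT16 and ZT20. Mrps31, Mrps35 and Mrps22, all specific to mitochondria, averaged 0.13, 0.13 and 0.12, Mrps22 being named after its values were seen. Mrps35 had its highest deposited value, 0.23, at ZT20, and Mrps22 its highest, 0.25, at ZT12, so the ZT of the highest value was not shared. Mrps7, whose bacterial relative helps to form the head of the small subunit near the decoding site, was the member called at 5 ZT. Its deposited values were 0.10, 0.09, 0.09, 0.15, 0.15 and 0.14, with a mean of 0.12 ± 0.03 (SD, n = 6 ZT). Mrps5, at the path by which the messenger enters, averaged 0.09. Mrps12, whose bacterial relative forms part of the decoding centre, had a mean of 0.04 that did not pass (adjusted p 0.587, inverse-variance weighted mean) and is named after its values were seen.

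Mrpl27, whose bacterial relative reaches into the peptidyl transferase centre, was the member that fell. The authors' deposited tables gave it -0.10, -0.15, -0.12, -0.01, -0.05 and 0.03 at ZT0 to ZT20, called at ZT4, with a mean of -0.07 (adjusted p 0.0376, inverse-variance weighted mean). The values were negative at 5 of the 6 ZT, and those at ZT0, ZT4 and ZT8 were the lowest. The call was lost when any of ZT0, ZT4, ZT8 or ZT16 was left out. Mrpl23, a protein of the tunnel exit, had a mean of -0.08 that did not pass (adjusted p 0.111, inverse-variance weighted mean), though the authors' deposited table called it at ZT16, at -0.19. Mrps33 had a mean of -0.04 and Mrps34 one of 0.01, neither past the test. Relative to the median member, levels of Mrps33 and Mrpl23 were 5.02-fold and 4.65-fold lower in the RORA set than in the PER2 set. The RORA values of Mrps33 and Mrpl23 should therefore be read with caution. Means of Mrpl18, Mrpl24, Mrpl32, Mrpl33, Mrpl34, Mrpl40, Mrpl48, Mrpl49, Mrpl50, Mrpl52, Mrpl54, Mrps6, Mrps10, Mrps11, Mrps16, Mrps18c, Mrps24, Mrps25 and Mrps26 did not pass either, and lay between -0.03 and 0.06. Mrpl57 had a mean of 0.00 (adjusted p 0.975, inverse-variance weighted mean). Mrps36 averaged 0.08 without passing, at the lowest level of all members, 46.1 normalized counts. A pseudogene of Mrps36 and one of Mrpl48 have rows of their own in the RORA tables, so reads could be split between copies, and values of these 2 members are uncertain. These genes, apart from Mrpl24, Mrpl27, Mrpl33, Mrpl57, Mrps25, Mrps26 and Mrps34, are named after their values were seen.

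By time of day, the authors' deposited RORA tables called 26 members higher and 1 lower at ZT0 (all genes 14.8% higher and 13.4% lower), and 18 and 1 at ZT4 (14.8% and 14.2%). At ZT8 they called 32 higher and none lower (13.7% and 14.1%), and at ZT12 20 and none (11.0% and 11.1%). At ZT16 they called 20 higher and 1 lower (10.4% and 10.3%), and at ZT20 27 and none (16.6% and 15.6%). The single lower calls were Mrpl48 at ZT0, Mrpl27 at ZT4 and Mrpl23 at ZT16. Medians of the members' deposited log2 fold changes were 0.05, 0.06, 0.10, 0.06, 0.07 and 0.07 at ZT0 to ZT20, highest at ZT8, against a median error of 0.05 for a single member at 1 ZT. In all, 57 members were called at 1 or more ZT (58.1% of all genes): 17 at 1 ZT, 19 at 2, 6 at 3, 8 at 4, 1 at 5 and 6 at all 6. The members' share was 74.0%, and this count takes calls in either direction. Mrpl1, Mrpl17, Mrpl21, Mrpl46 and Mrps14 rose on average without a call at any single ZT, and Mrpl1, Mrpl46 and Mrps14 are named for that after their values were seen. Across the 77 members, the deposited fold changes of any 2 ZT correlated with Pearson's r between 0.18 (ZT4 with ZT16) and 0.66 (ZT0 with ZT8), and the genes come from the same libraries at each ZT.

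Change with ZT was called for 1 of 77 RORA members by Cochran's Q, against 11.0% of all genes. At an unadjusted p under 0.05 the count was 10, for which the share of all genes is not given. The member called was Mrpl42, a protein specific to mitochondria. In the authors' deposited tables it had 0.02, 0.17, 0.15, 0.13, 0.03 and 0.09 at ZT0 to ZT20. It lay near 0 at ZT0 and ZT16 and was called at the other 4 ZT (adjusted p of Q 0.00306). Mrpl15 and Mrps21 had the next smallest adjusted p and did not pass. Mrps21 had called values of 0.19 at ZT4, 0.14 at ZT12 and 0.17 at ZT20 in the authors' deposited tables.

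**Figure D2:**
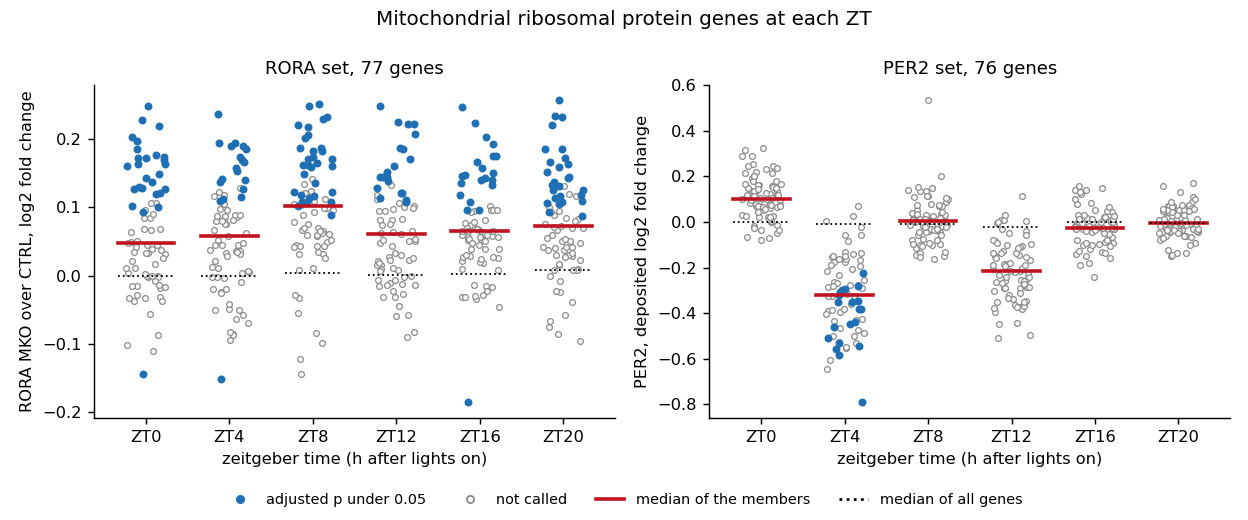
Deposited log2 fold changes of the members at each ZT (hours), RORA set and PER2 set in separate panels, with a point for each member, filled where called, a red line for the members' median and a dotted line for the median of all genes. The RORA medians lie between 0.05 and 0.10 at every ZT, whereas the PER2 medians are 0.10 at ZT0, -0.32 at ZT4 and -0.22 at ZT12 and near 0 at the other ZT.

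Levels were compared between members per length, as the mean level over all libraries of a set divided by the longest protein-coding transcript in kb, which need not be the form expressed. In the RORA set the level per kb was highest for Mrpl42, at 2113 normalized counts per kb, followed by Mrps21 at 721, Mrpl12 at 634 and Mrpl33 at 632. It was lowest for Mrps25, at 35.0, Mrps35 at 38.5, Mrpl19 at 43.9 and Mrps26 at 44.9. In the PER2 set the same 4 genes led in the same order, with Mrpl42 at 169 and Mrps21 at 80.6 CPM per kb, and Mrps35 was lowest at 2.36. Over the 75 shared members the log2 level per kb of the sets correlated with r = 0.90 and rho = 0.86, which share transcript lengths and tissue. Mrps36, Mrps33 and Mrpl23 stood apart, at levels 5.20-fold, 5.02-fold and 4.65-fold lower in the RORA tables than in the PER2 tables, relative to the median member. The next member, Mrps18b, was 1.87-fold lower. The sets differ in the authors' processing and in normalization, so this gap is between tables and not between genotypes. Across the 77 RORA members, the mean log2 fold change correlated with the log2 level with r = 0.42 and rho = 0.36. With transcript length r was 0.02 and rho 0.10. In the PER2 set, the mean correlated with the log2 level with r = 0.03 and rho = -0.06. The RORA fold changes behave as shrunken values, and the part of this in the relation with level was not tested.

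Other genes that serve the mitochondrial ribosome were looked at as lists, with counts by the same test of the mean in the RORA set. Of 5 ribosome proteins whose symbols fall outside the rule, 3 rose: Ptcd3 (0.16, called at all 6 ZT), Aurkaip1 (0.06) and Dap3 (0.04), all of the small subunit. The calls of Aurkaip1 and Dap3 were lost with limma and with the length and GC trend removed. Of 14 translation factors, 10 rose and 1 fell, with a median of 0.13. Taco1, an activator of the translation of a cytochrome oxidase subunit, averaged 0.25, Mtres1, a rescue factor for stalled ribosomes, 0.18, and the elongation factor Gfm1 0.15, each called at all 6 ZT. The initiation factor Mtif2 fell, with a mean of -0.05. Of 22 aminoacyl-tRNA synthetases and related enzymes, 11 rose and 1, Gatb, fell, with a median of 0.06. Iars2 (0.16) and Rars2 (0.18), which charge the tRNAs of isoleucine and arginine, were called at all 6 ZT. Of 26 genes of ribosome assembly and rRNA processing, 11 rose and 1, Mettl15, fell, with a median of 0.05. Lrpprc, which stabilizes mitochondrial messengers, and Grsf1, which binds mitochondrial RNA, both averaged 0.13. For mitochondrial transcription 3 of 5 rose, namely Tfam (0.10), Polrmt (0.11) and Tefm (0.09). Among 9 regulators of nuclear genes for mitochondria, Esrra (0.09), Ppargc1a (0.12) and Ppargc1b (0.18) rose. Nrf1 (-0.05) and Yy1 (-0.02) did not pass. Mtif2, Gatb, Mettl15, Nrf1 and Yy1 are named after their values were seen.

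The nuclear-encoded proteins of oxidative phosphorylation, the complexes that the mitochondrial ribosome helps to build, had 69 of 82 higher and 2 lower in RORA MKO muscle. Their median of 0.14 lay above the 0.08 of the mitochondrial ribosomal proteins. Ndufb5 of complex I averaged 0.40 and Atp5b of ATP synthase 0.26. Cytosolic ribosomal proteins, which are not parts of the mitochondrial ribosome, had 2 of 80 higher and 45 lower, with a median of -0.04. The ribosomal proteins of the cytosol and of mitochondria thus differed in the sign of their medians. Rps20 averaged -0.35 and Rpl9 -0.14. Endothelial markers were also higher in RORA MKO muscle, 11 of 12 with a median of 0.14, and none was lower. Their ZT medians were highest at ZT8 (0.26) and ZT20 (0.23). They summed to 5001 normalized counts over all libraries, against 24899 for the members. Red blood cell markers, 4 of 7 of them listed, had ZT medians of 0.03, 0.27, 0.39, 0.01, -0.01 and 0.27 at ZT0 to ZT20 and summed to 362 normalized counts. The part of these cells in the members' values was not tested.

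**Figure D3:**
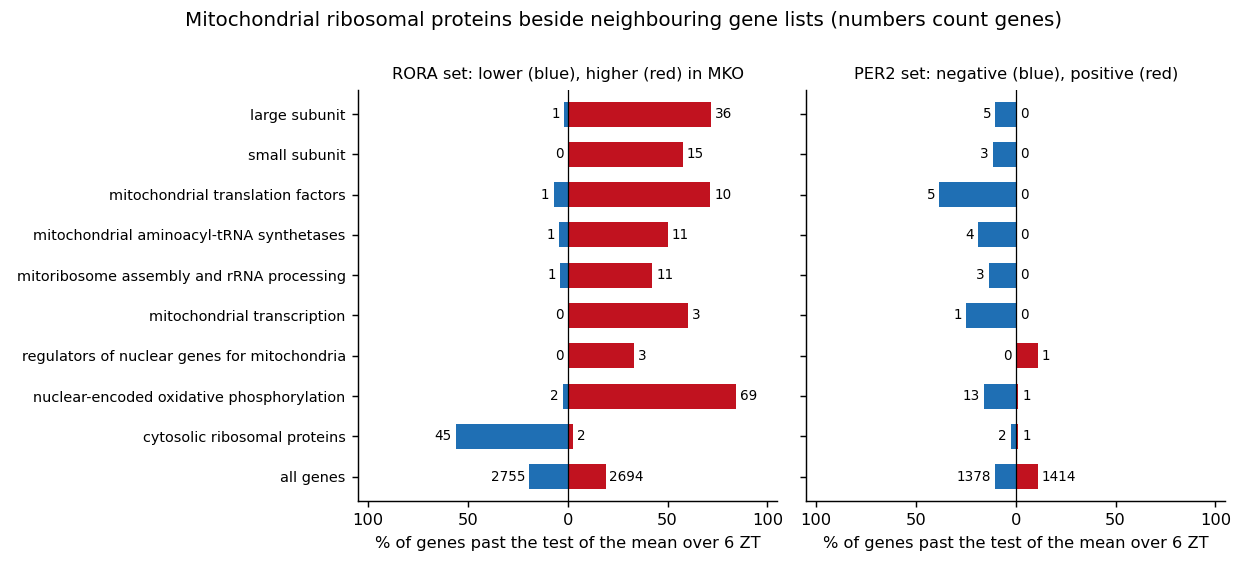
Bars give the percentage of each list's genes past the test of the mean over 6 ZT, to the right for higher (RORA) or positive (PER2) means and to the left for lower or negative ones, with the number of genes beside each bar. In the RORA set both subunits, with 36 and 15 genes higher, and oxidative phosphorylation, with 69, point to the right, whereas cytosolic ribosomal proteins, with 45 lower, point to the left.

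In the PER2 set, calls at single ZT were found at ZT4 alone. There the authors' deposited table called 20 of 76 members, 13 of the large and 7 of the small subunit, all with negative log2 fold changes (all genes 6.76% negative and 5.49% positive). Mrpl14 had the largest, -0.79, followed by Mrpl28 (-0.58), Mrps21 (-0.56), Mrpl38 (-0.55), Mrpl17 (-0.53) and Mrpl37 (-0.51). Mrpl44 had the smallest adjusted p in that table, 0.00213, with -0.31. At the other 5 ZT no member was called, where 2.70%, 1.78%, 3.34%, 0.811% and 1.52% of all genes were called at ZT0, ZT8, ZT12, ZT16 and ZT20. At an unadjusted p under 0.05, 16 members were negative at ZT12 and between 0 and 2 passed at each of the other 4. The shares of all genes at unadjusted p are not given, so these counts are not read as particular to the members. Cochran's Q called none of the 76 members (0.0463% of all genes; 10 members at an unadjusted p under 0.05), so a difference between ZT4 and the other ZT was not shown for any single member.

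Medians of the PER2 members' deposited log2 fold changes were 0.10, -0.32, 0.00, -0.22, -0.02 and 0.00 at ZT0 to ZT20. At ZT4 73 of 76 members were negative and at ZT12 71, with 70 negative at both, and 62 of those 70 were positive at ZT0. Mrpl14 shows the shape, with 0.16, -0.79, -0.15, -0.51, 0.01 and 0.00 at ZT0 to ZT20 in the authors' deposited tables. Mrpl12, the leading member of the RORA set, had 0.32, -0.55, 0.04, -0.37, -0.03 and 0.05 in the authors' deposited PER2 tables, with no call and a mean of -0.09 (adjusted p 0.527, Stouffer's sum). In both genes the lowest values were at ZT4 and ZT12 and the highest at ZT0, and neither gene passed Cochran's Q.

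At these 2 times the fold changes also differed with transcript length. Across 12238 genes above the minimum level, the deposited log2 fold change was higher for longer transcripts at ZT4 (Spearman's rho 0.54) and ZT12 (0.46), and had a rho of -0.25 with length at ZT0. Length and GC content together accounted for 28.3% of the variance between genes at ZT4, for 25.7% at ZT12 and for no more than 3.1% at any other time. The members have short transcripts, with a median of 1302 bases in the PER2 set, against 3154 over all genes. In the shortest of 10 length classes of equal size, 91 to 1264 bases, the 36 members had a median of -0.38 at ZT4, against -0.32 over all 1224 genes of that class. In the longest class the median of all genes was 0.21. With the trend removed, an alternative chosen after the data were seen, the members' medians were -0.13 at ZT4 and -0.06 at ZT12. In it 7 members were negative and called at ZT4 and 2 at ZT12. Of all genes, 5.16% and 1.91% were called at these times in either direction. Mrpl3 and Mrps5 were called at both times in that alternative, whereas Mrpl14 was called at neither. The 7 members called at ZT4 have long annotated transcripts, from 3319 bases (Mrps30) to 7300 bases (Mrpl17). Mrps25 was at -0.02 at ZT4 as deposited and at -0.22 with the trend removed. The length used is that of the longest protein-coding transcript, which need not be the form expressed. These calls depend on that choice.

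**Figure D4:**
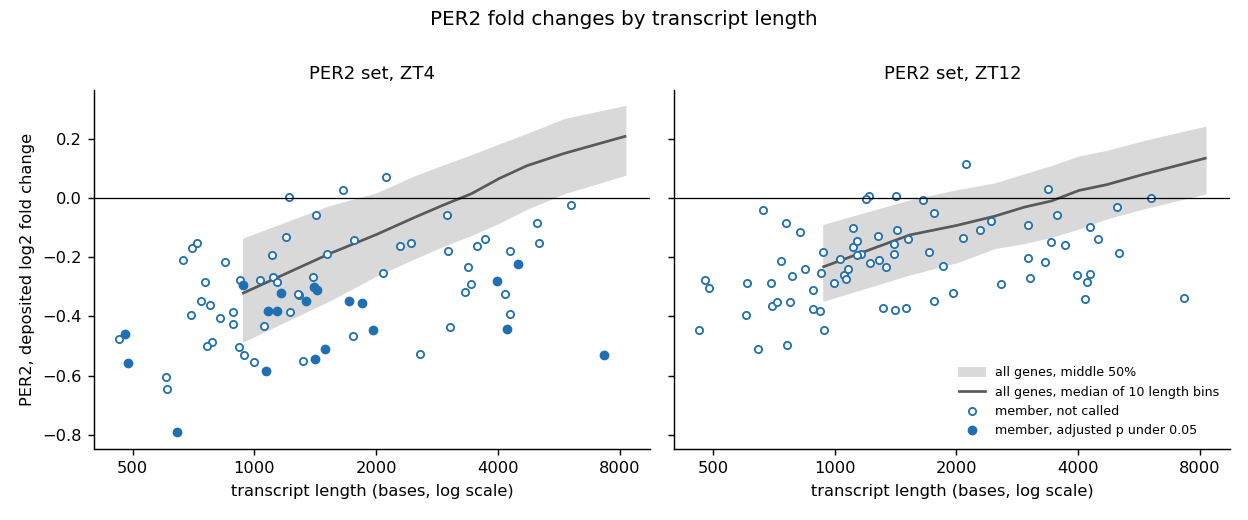
Deposited PER2 log2 fold change at ZT4 and ZT12 against transcript length in bases on a log axis. Circles are members, filled where called, and the line and band are the median and the middle 50% of all genes in 10 length classes. At ZT4 the line runs between -0.32 in the shortest class and 0.21 in the longest, and most members lie below 0 at every length.

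Red blood cell markers moved at the same times in the PER2 set. Of 7, 5 were listed and all 5 had a negative mean past the test, with medians of -1.35 at ZT4, where 5 were called, and -1.01 at ZT12, where 4 were called, and they summed to 207 CPM, against 1973 CPM for the members. Nuclear-encoded genes of oxidative phosphorylation had medians of -0.48 at ZT4 and -0.33 at ZT12, and cytosolic ribosomal proteins -0.42 at ZT4. The part of blood content or of length in the members' values at these times was not tested beyond the trend-removed values.

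Averaged over the 6 ZT, 8 of 76 PER2 members had a negative mean past the test and none a positive one (Stouffer's sum of signed z, Benjamini-Hochberg over all genes; all genes 10.6% negative, 10.9% positive). At an unadjusted p under 0.05 the counts were 17 and 0. The share of all genes is not given there, so nothing particular to the members is read from them. The median was -0.08, a difference of -5.10%, against -0.02 over all genes, and it was 0.01 without ZT4 and ZT12. Of the 8, 5 were of the large subunit and 3 of the small. Mrps5 had the smallest adjusted p, 2.91e-05 by Stouffer's sum, with -0.08, -0.22, -0.15, -0.14, -0.14 and -0.04 at ZT0 to ZT20 in the authors' deposited tables. Mrpl39, a protein specific to mitochondria, had -0.07, -0.16, -0.11, -0.11, -0.13 and -0.12 in those deposited tables, and Mrps31 -0.07, -0.19, -0.13, -0.14, -0.16 and -0.10. These 3 genes were negative at every ZT with little spread, unlike Mrpl14. Mrps18b and Mrps30 had means of -0.15, and both were negative at every ZT. Mrpl3 averaged -0.11, Mrpl44 -0.10 and Mrpl35 -0.09, and in these the value at ZT0 was 0 or positive. Only Mrps5 passed without ZT4 and ZT12, and none of the 8 passed in limma on the 6 values. The genes negative at all 6 ZT were 6 (9.08% of all genes), and none was positive at all 6 (9.50% of all genes).

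Of the PER2 members outside these 8, Mrpl38 had a mean of -0.16 (adjusted p 0.0601, Stouffer's sum) and Mrpl14 one of -0.21 (adjusted p 0.108). Mrpl18, named after its values were seen, had the highest mean, 0.07, and did not pass. Mrpl53, listed in this set only, had a mean of -0.07 (adjusted p 0.55, Stouffer's sum). Among the related lists, 5 of 13 translation factors had negative means past the test, Taco1 (-0.13), Mrrf (-0.11), Mtif3 (-0.13), Tufm (-0.12) and Tsfm (-0.14), and none a positive one. Tsfm is named after its values were seen, and its call was not refitted. Of 21 synthetases and related enzymes 4 were negative, Yars2 (-0.14), Kars (-0.10), Gars (-0.07) and Lars2. Lars2 was at -4.63 at ZT4 in the authors' deposited table. An rRNA-like repeat in mouse Lars2 can draw reads of ribosomal RNA, so its value is uncertain. Assembly genes had 3 of 22 negative, Mtg1 (-0.23), Trub2 (-0.14) and Rpusd4 (-0.13). The ribosome proteins outside the symbol rule had 1 of 5 negative, Dap3 (-0.09), and mitochondrial transcription 1 of 4, Tefm (-0.10). Ppargc1a, a coactivator of nuclear genes for mitochondria, had a mean of 0.22 past the test. The 21 called genes of all the PER2 lists that were refitted, up to 4 per list, all lost their call with limma and without ZT4 and ZT12.

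Set side by side, 50 of the 75 shared members rose in RORA MKO muscle, and all 8 PER2-negative members, Mrpl3, Mrpl35, Mrpl39, Mrpl44, Mrps18b, Mrps30, Mrps31 and Mrps5, were among them. That is 16% of the RORA list and 100% of the PER2 list. Over all 11328 genes shared by symbol, 608 of 1233 PER2-negative genes (49.3%) were higher in RORA MKO muscle. Of the shared members 66.7% rose in the RORA set, and the share of PER2 members that were negative (10.5%) was near that of all genes, so the overlap is given as a count and nothing particular to the members is read from it. Mrps18b, for example, averaged 0.13 in the RORA set and -0.15 in the PER2 set, and Mrpl3 0.16 and -0.11. Across the 75 shared members the means of the sets correlated with r = -0.43 and rho = -0.40, as a description over genes measured in common. Since the direction of the PER2 fold change is not stated, no statement is made on whether the knockouts act in the same or in opposite ways.

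**Figure D5:**
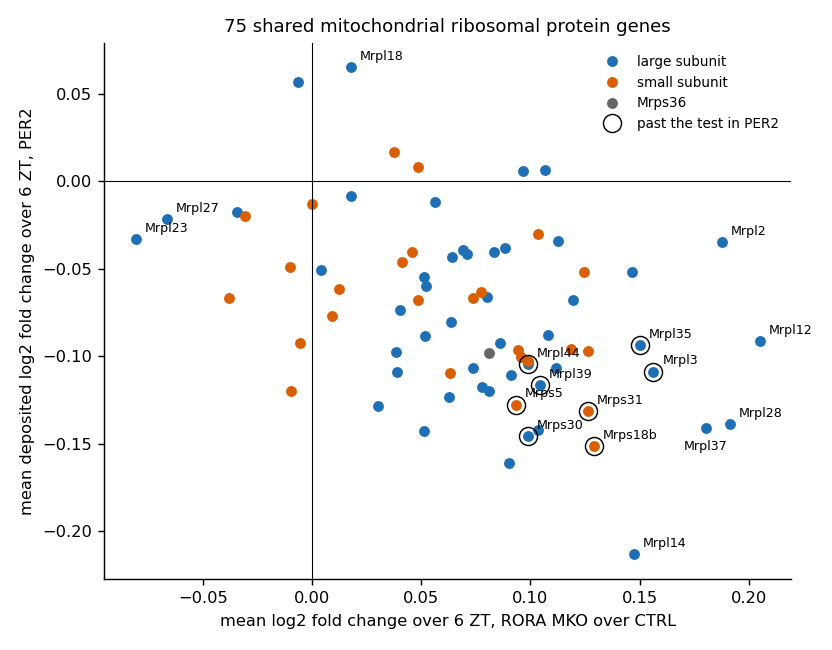
Mean log2 fold change over 6 ZT in the RORA set (MKO over CTRL) against that in the PER2 set (direction not stated), 1 point for each of the 75 shared members, coloured by subunit. The 8 circled members, those past the test in PER2, all lie to the right of 0 in RORA, and r over the 75 points is -0.43.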

How the data were processed

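RNA from mouse muscle was sequenced as stranded mRNA libraries on an Illumina NextSeq, per the labels' protocols. Tools named in the submitters' processing notes are DESeq2, STAR, Trimmomatic, MultiQC, R (4.1) and bcl2fastq (2.20.0.422). The same notes name mm9 and GRCm39 as builds. Which tool counted reads, and whether by strand, was not given in the sources used here, so reads of overlapping antisense genes cannot be told apart. Per the labels, a RORA gene needed 10 reads in 3 samples.

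The 12 files hold comparisons fitted by the authors, 1 per set and ZT. In the RORA files the authors deposited a signal level, which is the mean normalized count. Beside it stand, per the file headers, log2 fold changes and their errors, each with its p-value before and after adjustment. Dividing the deposited log2 fold change by that error gave, at the median, 0.779 times the z that its p implies, as with shrunken values. In the PER2 files the authors deposited log2 fold changes, the average log2 CPM and the likelihood ratio score, again with p-values. No error is listed there, and it was derived by dividing the size of each log2 fold change by the square root of its likelihood ratio score. The test of counts per library set for files of counts could not be used, and the tests set for tables of comparisons were.

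Calls at a ZT were a deposited adjusted p under 0.05. The mean over the 6 ZT was tested in RORA with inverse-variance weights, and in PER2 with Stouffer's sum of z, both with a two-sided normal p. Cochran's Q (5 degrees of freedom) tested change with ZT. These tests take the 6 values of a gene as independent, with no allowance for an error estimate shared between ZT. All were adjusted by Benjamini-Hochberg over every gene of the set. Means and SDs in the text are plain, over 6 ZT. Alternatives were the other combination, limma 3.58.1 (R 4.3.3) on the 6 values, centring on the median gene, removal of a trend with transcript length and GC content (splines with 5 degrees of freedom), a level minimum, a threshold of 0.01 and leaving out each ZT. Removal of the trend at single ZT and leaving out ZT4 with ZT12 were chosen after the data were seen. The scripts were checked on simulated data without shrinkage, so the check does not cover how the tests behave on shrunken RORA values. GENCODE M21, on GRCm38, gave names, lengths and GC content, and RefSeq on GRCm38.p6 gave promoters. The software was Python 3.11.15 with statsmodels 0.14.6, SciPy 1.17.1, pandas 2.3.3, NumPy 2.4.6 and matplotlib 3.10.9.

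Genes are named by this rule: the targeted genes, the 8 highest and 8 lowest means among members past the test, members called at all 6 ZT or, in PER2, at the most ZT, the 6 smallest adjusted p of Q, the 4 highest and 4 lowest levels per length, members of 1 set only, and up to 4 genes per list by adjusted p. Other named genes are said to be so. The members and the lists were chosen with earlier results of these data known.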

Additional observations from a re-analysis of the deposited data

Results flagged for a closer look

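Mrpl42 in the RORA set was set apart by the test of change with ZT, with an adjusted p of Cochran's Q of 0.00306 over all genes. Its log2 fold changes of MKO over CTRL, in the authors' deposited tables, were 0.02, 0.17, 0.15, 0.13, 0.03 and 0.09 at ZT0 to ZT20, so it was called higher in MKO muscle at ZT4, ZT8, ZT12 and ZT20, and did not pass at ZT0 and ZT16.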

How the results depend on the processing

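In the RORA set, 44 of 57 values of the main counts and medians kept their direction and size, and in the PER2 set 51 of 60. The others moved, and the PER2 members' median turned from negative to slightly positive without ZT4 and ZT12. RORA members higher on average were 35 with limma and 55 with Stouffer's sum, and 44 to 50 when a ZT was left out. RORA members lower on average were 2 with Stouffer's sum or with the length and GC trend removed (Mrpl23 and Mrpl27), 0 with limma and 0 to 1 when a ZT was left out. Change with ZT was called for 6 RORA members on z values (Mrpl14, Mrpl15, Mrpl24, Mrpl38, Mrpl42 and Mrps21), for 2 after centring (Mrpl15 and Mrpl42), and for 1 to 2 when a ZT was left out. At an adjusted p under 0.01, calls were 20 at ZT8, 8 at ZT16 and 17 at ZT20 in RORA, and 1 (Mrpl44) at ZT4 in PER2. PER2 members with a negative mean were 0 with limma, 3 to 15 when a ZT was left out (15 without ZT0, 3 without ZT4, 5 without ZT12), and 1 without both ZT4 and ZT12. Among all genes, 4839 to 5295 of 14253 in RORA passed the test of the mean in either direction when a ZT was left out. In PER2 these were 1873 to 2796 of 12952. For the other counts of this kind, shares of all genes are not given. Nothing particular to the members is read from those. With the trend removed, 1 PER2 member, Mrpl18, had a positive mean past the test. Calls at single ZT were then 7 at ZT4 and 2 at ZT12, against 5.16% and 1.91% of all genes. They depend on the transcript length taken for each gene. The causes were not tested. Of 21 called PER2 genes of the related lists, all 21 lost their call with limma and without ZT4 and ZT12 (Lars2 also reversed in sign in the second), and 12 lost it with the trend removed. Of 29 such RORA genes, 3 (Aurkaip1, Dap3 and Ppargc1a) lost it with limma and 2 (Aurkaip1 and Dap3) with the trend removed, and Dap3 lost it in 6 of 11 alternatives. No paired analysis was possible because the tables hold no values per library and the numbers in the titles only number the samples. Leaving out single libraries was not run for the same reason. Depth per library is unknown, and the direction of the PER2 values is not stated.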
